A study of Mus musculus with 16 samples.

Results

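The difference that pregnancy made to the lung response to titanium dioxide (TiO2) particles was measured as 1 contrast per gene. It is the TiO2 minus PBS difference in pregnant mice minus the same difference in non-pregnant mice, and is called the interaction here. All 16 arrays of the study entered it, in 4 groups of 4: pregnant mice given TiO2, pregnant mice given PBS, non-pregnant mice given TiO2 and non-pregnant mice given PBS. All were female mice of the inbred BALB/c strain. Pregnant mice were at day 14 of gestation. TiO2 groups received 50 ug of particles per mouse, suspended in phosphate-buffered saline (PBS), through the nose, and PBS groups received the vehicle alone. Particles had been baked against endotoxin, mice were given halothane, and RNA of the whole lung was taken 19 hours later. The age of the mice is not given in the labels, nor whether each array is 1 mouse, so that p-values measure the spread between these arrays. The study asked whether pregnancy alters the normally slight inflammation caused by a dust regarded as inert.

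Inhaled particles are taken up by alveolar macrophages, and irritant ones draw neutrophils into the airspaces through chemokines and interleukin 1. Pregnancy alters circulating steroids, blood leukocytes and the cellular makeup of the thymus. An interaction differs from 0 where the particle response has another size or another sign in pregnant than in non-pregnant lung. A positive interaction means that the TiO2 minus PBS difference was higher in pregnant mice.

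Levels are given as log2(signal + 16) of quantile-normalized array signal, and differences are in log2 units of that scale, which understates differences of weak signals. Lung markers were strong on every array: the surfactant gene Sftpc lay between 13.15 and 13.49, the club cell secretoglobin Scgb1a1 between 13.44 and 13.55 and the alveolar type 1 gene Ager between 13.04 and 13.30. Several arrays stood apart. Prss16, a protease of thymic epithelium, was at 8.98 and 9.72 in non-pregnant PBS arrays 3 and 4 and at no more than 6.32 on the other 14 arrays. Pregnant TiO2 array 2 had 5.21 for the squamous keratin Krt13 and 6.56 for the muscle actin Acta1, against at least 10.71 and 11.86 elsewhere. The level of Glycam1, an adhesion mucin of high endothelial venules, was 4.15 on that array and at 4.14 and 4.60 in non-pregnant TiO2 arrays 1 and 4, against at least 8.06 elsewhere. Non-pregnant PBS array 2 carries labels that conflict, and was placed by its gestation label. The 18S ribosomal RNA signal was 110 ± 69.1 in pregnant TiO2, 74.2 ± 15.5 in pregnant PBS, 354 ± 218 in non-pregnant TiO2 and 152 ± 57.5 in non-pregnant PBS lungs (SD, n = 4 each). The part of this control signal in the results was not tested.

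No gene passed the threshold for the interaction. Of 12369 genes tested with limma, 0 (0%) had a Benjamini-Hochberg adjusted p under 0.05, and the lowest adjusted p was 0.232. At an unadjusted p under 0.05 there were 1352 genes (10.9%), of which 804 (6.5%) were positive and 548 (4.43%) negative. Their median interactions were 0.47 and −0.39, and 126 genes of all those tested lay beyond 1 log2 unit in either direction. The excess of positive genes depended mostly on non-pregnant PBS array 3. Without that array there were 607 positive and 540 negative genes. Without array 4, which also held thymus transcripts, there were 797 and 527. Without non-pregnant PBS arrays 3 and 4 there were 630 positive and 614 negative genes. With pregnant TiO2 array 2 left out too, there were 621 and 662. With values as deposited, without scaling between arrays, all genes shifted to a median interaction of −0.25, and the unadjusted counts were 45 positive and 558 negative. Lists of genes are therefore read beside the median of all genes, which was 0.02 after normalization. The arms of the contrast also had 0 genes at the adjusted threshold, with lowest adjusted p of 0.257 in pregnant and 0.146 in non-pregnant mice. At an unadjusted p under 0.05 they had 795 (6.43%) and 1223 (9.89%).

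Most genes at the unadjusted threshold had TiO2 differences of opposite sign in the pregnancy states. Among the 804 positive ones, 768 lay above 0 in pregnant and below 0 in non-pregnant mice. Among the 548 negative ones, 528 lay below 0 in pregnant and above 0 in non-pregnant mice. Over all genes 57.1% had opposite signs, and a large interaction favours them by its construction. The larger of the paired differences was that of non-pregnant mice in 500 of the positive genes (62.2%) and in 311 of the negative ones (56.8%), against 52.8% of all genes.

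In 18 genes (0.146%) the TiO2 and PBS arrays did not overlap in pregnant mice nor in non-pregnant mice, and the order of the groups was reversed. The 8 of these with the smallest p are shown in the plot of genes with reversed order. Dipk1b, a kinase-like protein of the endoplasmic reticulum, had the smallest p of all genes. Its level was 6.68, 6.67, 6.64 and 6.80 in pregnant TiO2 lungs, against 6.29, 6.11, 6.38 and 6.27 in pregnant PBS lungs. Among non-pregnant mice its level was 6.10, 6.40, 6.36 and 6.11 with TiO2, against 6.70, 6.45, 6.74 and 6.46 with PBS. High levels were thus found in the pregnant TiO2 and the non-pregnant PBS lungs, and the interaction was 0.78 ± 0.14 (SE, adjusted p = 0.232 by limma).

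Procr, the endothelial receptor that speeds activation of the anticoagulant protein C, was higher with TiO2 in pregnant and lower in non-pregnant mice. It stood at 7.90, 7.94, 7.78 and 8.00 in pregnant TiO2 lungs, against 7.65, 7.47, 7.53 and 7.69 in pregnant PBS lungs. The non-pregnant values were 7.39, 7.47, 7.50 and 7.53 with TiO2 and 7.69, 7.58, 7.70 and 7.63 with PBS. Every pregnant TiO2 array lay above all 12 others, and the interaction was 0.50 ± 0.10. Tbxa2r, the receptor for the platelet activator and bronchoconstrictor thromboxane A2, had 8.03, 8.04, 8.00 and 7.79 in pregnant TiO2 lungs, against 7.54, 7.45, 7.58 and 7.77 in pregnant PBS lungs. Non-pregnant levels were 7.77, 7.81, 7.91 and 7.48 with TiO2, against 8.06, 8.23, 8.50 and 7.94 with PBS, an interaction of 0.82 ± 0.17.

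The other 5 of these 8 genes were lower with TiO2 in pregnant mice and higher in non-pregnant mice. Cnksr3, a scaffold that promotes epithelial sodium uptake under aldosterone, was at 9.01, 9.23, 9.21 and 8.87 in pregnant TiO2 lungs, against 9.40, 9.37, 9.51 and 9.54 in pregnant PBS lungs. Its non-pregnant values were 9.28, 9.38, 9.39 and 9.32 with TiO2 and 9.02, 8.94, 9.24 and 9.09 with PBS, and its interaction was −0.64 ± 0.13. Plekha8, a transfer protein for glycolipids, stood out through the non-pregnant TiO2 lungs, at 8.44, 8.36, 8.46 and 8.31, against 7.81, 8.24, 7.95 and 7.81 in non-pregnant PBS lungs. In pregnant mice it was at 7.84 to 7.98 with TiO2 and at 7.99 to 8.11 with PBS, so that the groups were close although they did not overlap. Its interaction was −0.57 ± 0.13, although other probe sets of the gene reached 0.29. Without non-pregnant PBS array 2, whose labels conflict, Plekha8 passed the threshold with an interaction of −0.67 (limma's adjusted p = 0.0437). So did Nfatc3, a transcription factor of lymphocytes, at 0.69 (adjusted p = 0.0301), against 0.50 with all arrays.

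Tmem41a, a membrane protein of the endoplasmic reticulum, had the widest difference of the 8. It was at 8.98, 8.96, 8.93 and 8.63 in pregnant TiO2 lungs, against 9.20, 9.18, 9.09 and 9.20 in pregnant PBS lungs. Non-pregnant values were 9.38, 9.06, 9.18 and 9.38 with TiO2 and 8.16, 8.86, 9.02 and 8.74 with PBS, an interaction of −0.85 ± 0.21. Rmdn1, a protein of microtubules and mitochondria, was at 7.72 to 7.98 in pregnant TiO2 and 8.10 to 8.27 in pregnant PBS lungs. It was at 8.11 to 8.21 in non-pregnant TiO2 and 7.72 to 8.10 in non-pregnant PBS lungs, an interaction of −0.55 ± 0.13, with 1 of its probe sets at 0.08. Cdk18, a cyclin-dependent kinase, was at 7.40 to 7.65 in pregnant TiO2 and 7.73 to 7.90 in pregnant PBS lungs, and at 7.52 to 7.79 in non-pregnant TiO2 and 7.35 to 7.52 in non-pregnant PBS lungs, an interaction of −0.47 ± 0.12. Every one of these 8 interactions had an adjusted p of 0.232 by limma.

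**Figure D1:**
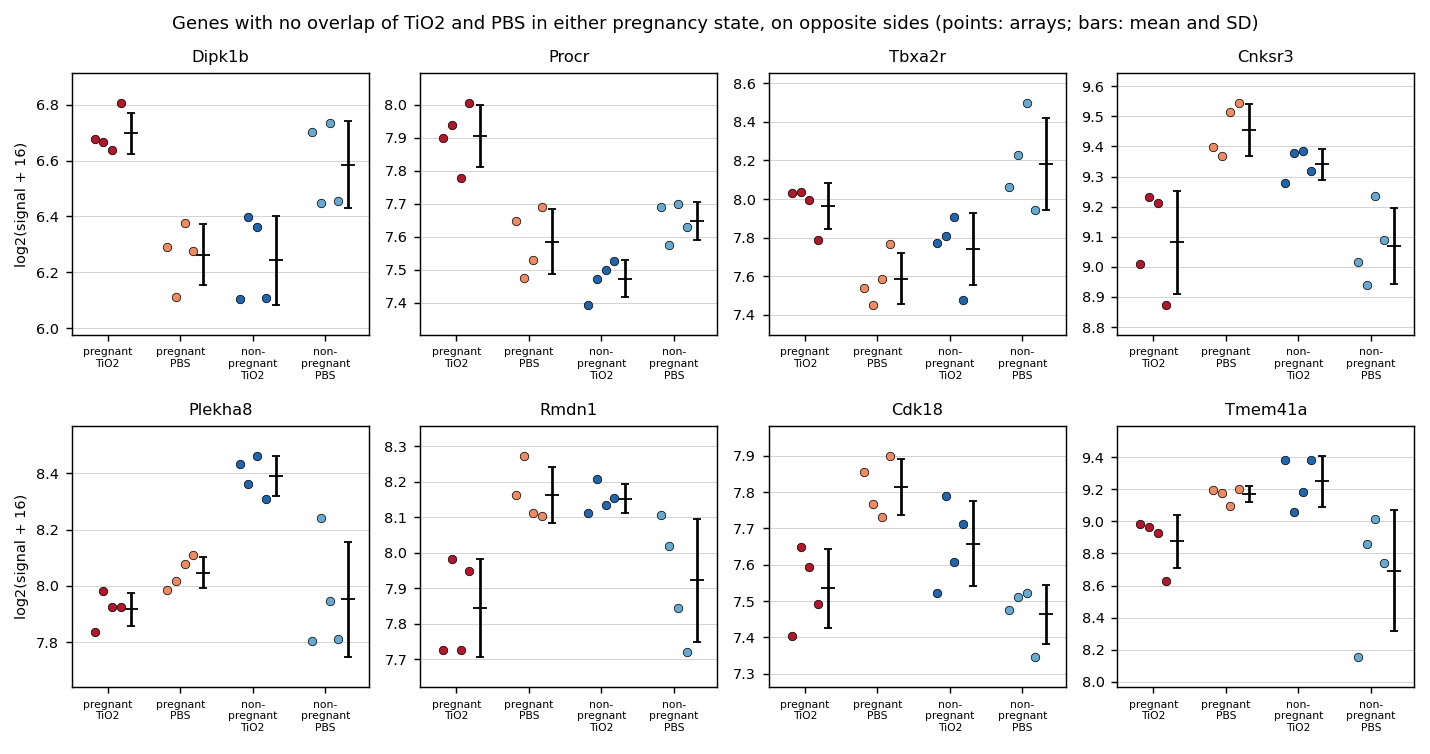
Level of 8 genes on each array, as log2(signal + 16), in the 4 groups, with bars for mean and SD of 4 arrays. In pregnant mice the TiO2 and PBS arrays do not overlap and in non-pregnant mice they lie apart in the reverse order; Dipk1b, Procr and Tbxa2r are higher with TiO2 in pregnant mice, and the other 5 are lower.

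Other positive genes with the smallest p followed. Pmf1, a kinetochore protein of dividing cells, averaged 7.75 ± 0.27 in pregnant TiO2 and 7.26 ± 0.34 in pregnant PBS lungs. It averaged 7.28 ± 0.15 in non-pregnant TiO2 and 8.01 ± 0.22 in non-pregnant PBS lungs (SD, n = 4 each), an interaction of 1.22 ± 0.24. Dctn6, a subunit of the dynein activator dynactin, had 1.13 ± 0.23, Pfdn1, a prefoldin chaperone subunit, 0.83 ± 0.17, and Adap1, a GTPase-activating protein for Arf6, 0.84 ± 0.17. A second probe set of Dctn6 had an interaction of 0.09, so that its value depends on the probe set. Stk40, Mrps18c, Rbp4 and Tmem147 had interactions of 0.76 ± 0.16, 0.55 ± 0.12, 0.80 ± 0.18 and 0.61 ± 0.14. The retinol carrier Rbp4 was lower with TiO2 in non-pregnant mice without overlap, at 9.02 to 9.40, against 9.61 to 10.06 with PBS, while its pregnant groups overlapped.

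The other negative genes with the smallest p had varied roles. Tfdp2, a dimerization partner of E2F factors, averaged 9.36 ± 0.09 in pregnant TiO2 and 9.70 ± 0.26 in pregnant PBS lungs. It averaged 9.85 ± 0.09 in non-pregnant TiO2 and 9.38 ± 0.17 in non-pregnant PBS lungs (SD, n = 4 each), an interaction of −0.81 ± 0.16. Jade2, a subunit of a histone acetyltransferase complex, had −0.71 ± 0.15, and Mknk1, the kinase of the translation factor eIF4E, −0.71 ± 0.16. In Tfdp2, Jade2 and Mknk1 the TiO2 arrays of non-pregnant mice lay above every non-pregnant PBS array. Naming genes by a small interaction p favours such separation, and the share of all genes apart in this way was not counted. Gdpd1, Armcx4, Snap23, Ppm1k, Ints8 and Ercc5 had interactions of −0.70 ± 0.14, −0.55 ± 0.12, −0.67 ± 0.15, −0.51 ± 0.12, −0.61 ± 0.14 and −0.41 ± 0.10. Ercc5, an endonuclease of nucleotide excision repair, was at 8.15 to 8.34 with TiO2 and 7.78 to 7.91 with PBS in non-pregnant mice, and at 7.82 to 7.90 with TiO2 and 7.78 to 7.99 with PBS in pregnant mice, where the groups overlapped. In Gdpd1, Tfdp2 and Snap23 other probe sets of the gene reached 0.14, 0.01 and 0.04.

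Genes of cell division had positive interactions nearly throughout. DNA replication and mitosis use separate gene groups: the first is switched on by E2F factors at the entry into S phase, and the second by complexes that bind CHR and CCAAT elements. Of the G1/S and DNA replication list 28 of 32 genes passed the expression filter, and 27 had an interaction above 0, against 53.3% of all genes. At an unadjusted p under 0.05 there were 9 positive and 0 negative, and the median was 0.47. Of the G2/M and mitosis list 27 of 34 passed, 26 lay above 0, 13 were positive and 0 negative at the unadjusted threshold, and the median was 0.69. Over all genes the shares were 6.5% positive and 4.43% negative. The exceptions below 0, named after their values were seen, were Fen1, the flap endonuclease, at −0.61 ± 0.38, and the cytokinesis protein Anln, at −0.18 ± 0.19. Both arms contributed: median TiO2 differences were 0.23 and 0.31 in pregnant mice, and −0.23 and −0.35 in non-pregnant mice. The plot of the pregnancy arms shows these genes as a cloud above and to the left of the origin.

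**Figure D2:**
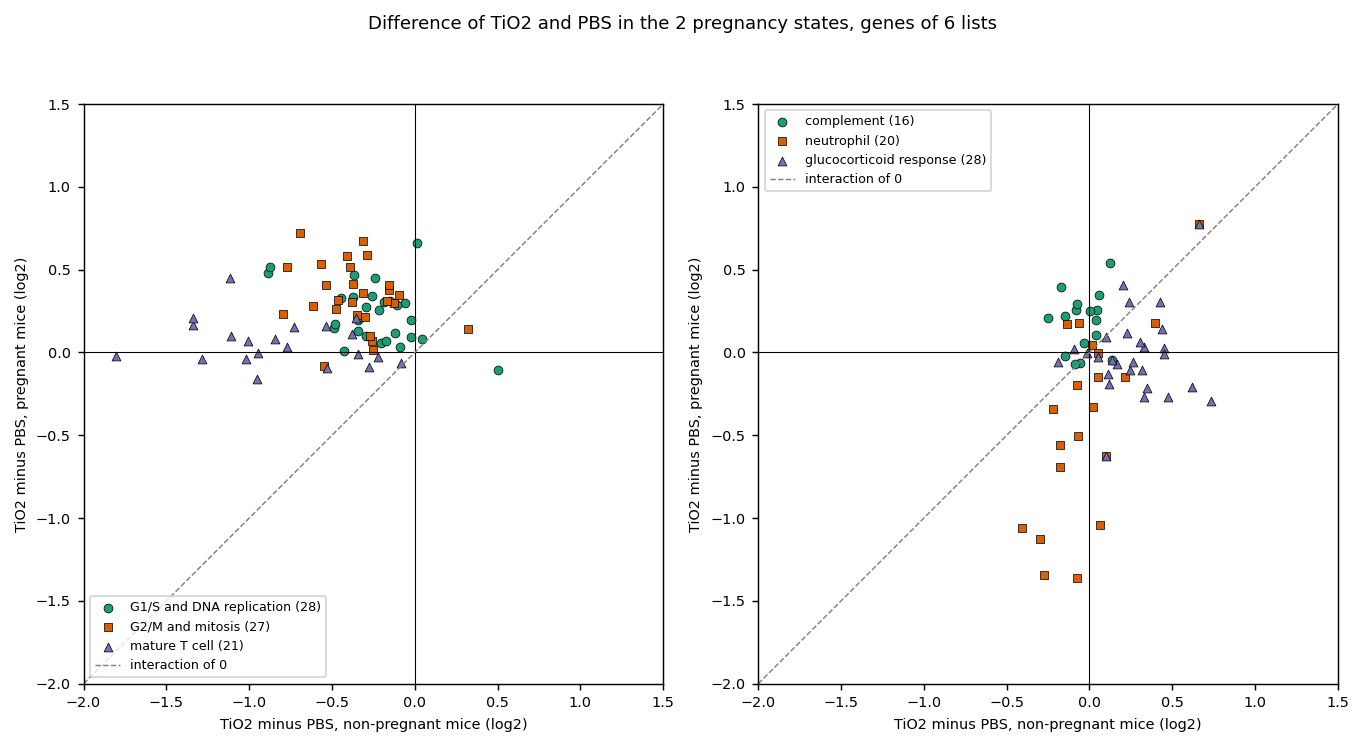
TiO2 minus PBS difference (log2) of each gene in pregnant mice (vertical axis) against the same difference in non-pregnant mice (horizontal axis), for genes of 6 lists, with the dashed line marking an interaction of 0. Cell-cycle and T-cell genes lie above the line, with T-cell genes near 0 on the vertical axis; neutrophil genes lie mostly below it through negative values in pregnant mice, and glucocorticoid-response genes mostly below it through positive values in non-pregnant mice.

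The non-pregnant side of this pattern rests on the arrays with thymus transcripts. The mean level of the G2/M list was 6.97, 7.08, 6.87 and 6.99 in pregnant TiO2 lungs, against 6.52, 6.52, 6.64 and 6.87 in pregnant PBS lungs. In non-pregnant lungs it was 6.55, 6.70, 6.64 and 6.75 with TiO2, against 6.63, 6.46, 7.39 and 7.61 with PBS, where arrays 3 and 4 stood far above the others. The G1/S list had means of 7.61, 7.64, 7.45 and 7.58 in pregnant TiO2 and 7.27, 7.24, 7.35 and 7.46 in pregnant PBS lungs, and its non-pregnant PBS arrays 3 and 4 were likewise the highest, at 7.92 and 7.94. Without these 2 arrays the median interaction was 0.18 for G1/S genes, with 22 of 28 above 0, and 0.21 for G2/M genes, with 21 of 27 above 0. Non-pregnant medians were then 0.07 and 0.11, on the other side of 0. The unadjusted counts without them were 3 positive and 1 negative for G1/S, and 4 and 1 for G2/M, out of 630 positive and 614 negative genes in all. With non-pregnant PBS array 2 counted as pregnant, as its other label says, the medians were 0.62 and 0.96. Then 27 of 28 G1/S genes and 27 of 27 G2/M genes lay above 0. At the unadjusted threshold 20 and 21 of them were positive, out of 1164 positive genes in all. Without that array 19 and 21 were positive at this threshold, out of 1084 positive genes in all. In pregnant mice the G2/M means did not overlap, but TiO2 array 3 and PBS array 4 lay together at 6.87.

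**Figure D3:**
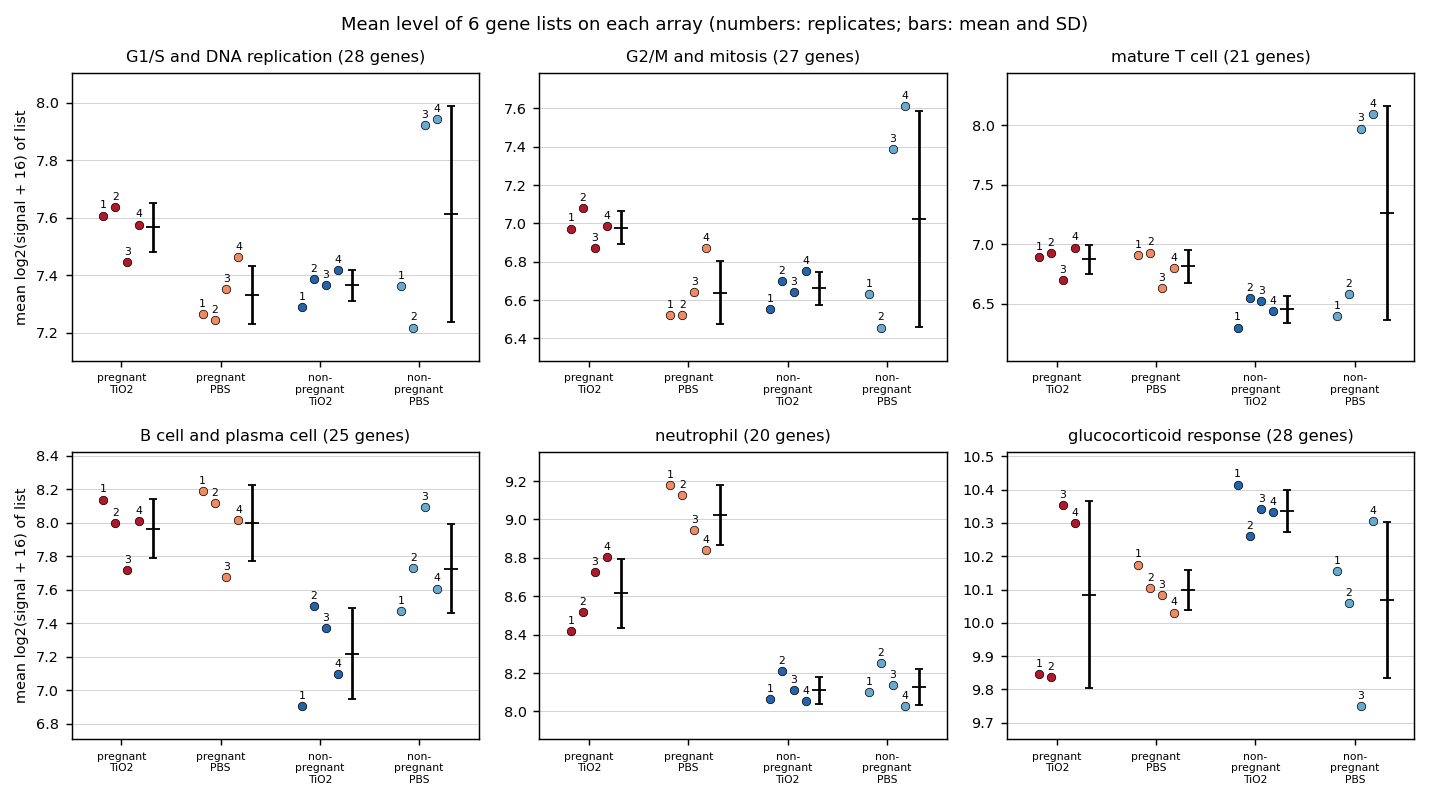
Mean of log2(signal + 16) over the genes of 6 lists on each array, with replicate numbers above the points and bars for mean and SD. Non-pregnant PBS arrays 3 and 4 stand above the rest in the cell-cycle and T-cell lists; the neutrophil list is highest in pregnant PBS lungs and lower in pregnant TiO2 lungs, and the non-pregnant groups overlap.

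Single cell-cycle genes differed in how far they depended on those arrays. Birc5, or survivin, an inhibitor of apoptosis that also guides chromosome segregation, was at 7.28, 7.18, 7.13 and 7.06 in pregnant TiO2 lungs, against 6.26, 6.54, 6.31 and 6.66 in pregnant PBS lungs. Its non-pregnant values were 6.25, 6.56, 6.41 and 6.59 with TiO2 and 6.53, 6.48, 7.73 and 7.85 with PBS. The pregnant groups did not overlap, and the interaction of 1.42 ± 0.35 was 0.77 without non-pregnant PBS arrays 3 and 4. Mcm2, a subunit of the replicative helicase, behaved differently, at 7.92, 7.80, 7.82 and 7.90 in non-pregnant TiO2 lungs, against 8.31, 8.21, 8.37 and 8.49 in non-pregnant PBS lungs. Its pregnant values were 8.18, 7.97, 7.82 and 7.92 with TiO2 and 7.82, 7.94, 7.94 and 7.61 with PBS. All non-pregnant PBS arrays were high for Mcm2, not only those with thymus transcripts, and its interaction was 0.64 ± 0.14 with them and 0.55 without.

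Top2a, the topoisomerase of mitotic chromosomes, was at 7.51, 7.54, 7.31 and 7.71 in pregnant TiO2 lungs, against 6.79, 6.93, 7.05 and 7.25 in pregnant PBS lungs. In non-pregnant mice it was at 7.14, 7.43, 7.07 and 7.50 with TiO2, against 7.73, 6.76, 8.72 and 9.02 with PBS, where arrays 3 and 4 exceeded all others. Its interaction was 1.29 ± 0.48 with all arrays and 0.48 without these 2. The cyclin Ccnb2 had 1.10 ± 0.31 and 0.61, the chromokinesin Kif4 0.94 ± 0.28 and 0.76, the checkpoint kinase Bub1b 1.03 ± 0.34 and 0.48, and the mitotic kinase Cdk1 0.99 ± 0.38 and 0.65, each with all arrays and without those 2. Cdc45, part of the active replicative helicase, had 0.84 ± 0.22 and 0.64, the ribonucleotide reductase subunit Rrm2 1.36 ± 0.49 and 0.47, the helicase subunit Mcm6 0.71 ± 0.26 and 0.35, and the chromatin assembly factor Chaf1b 0.57 ± 0.22 and 0.44. The proliferation antigen Mki67 had 0.78 ± 0.43, and 0.00 without the arrays. In pregnant mice Mki67 was at 8.04 to 8.28 with TiO2 and 7.59 to 7.97 with PBS, without overlap.

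Promoters of these genes are shown because 2 lists that move together on these arrays carry different elements. They span 250 bases before to 50 after the RefSeq gene start of GRCm38.p6, each printed on the gene's own strand, and capitals mark matches of 3 motifs searched on both strands. These were E2F sites (TTTCCCGC, TTTCGCGC, TTTGCCGC or TTTGGCGC), the CHR element (TTTGAA or TTCGAA) and the CCAAT box, and adjoining capitals can be overlapping matches. Mcm2 lies on chr6:88898731-88899030, Mcm6 on chr1:128359656-128359955 and Top2a on chr11:99024140-99024439, all on the minus strand.
Mcm2: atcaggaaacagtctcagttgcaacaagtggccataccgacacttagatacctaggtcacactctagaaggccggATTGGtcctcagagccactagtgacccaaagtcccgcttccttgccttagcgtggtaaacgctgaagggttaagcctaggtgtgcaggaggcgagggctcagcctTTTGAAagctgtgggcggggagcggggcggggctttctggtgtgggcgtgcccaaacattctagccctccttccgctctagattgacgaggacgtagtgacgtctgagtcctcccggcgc
Mcm6: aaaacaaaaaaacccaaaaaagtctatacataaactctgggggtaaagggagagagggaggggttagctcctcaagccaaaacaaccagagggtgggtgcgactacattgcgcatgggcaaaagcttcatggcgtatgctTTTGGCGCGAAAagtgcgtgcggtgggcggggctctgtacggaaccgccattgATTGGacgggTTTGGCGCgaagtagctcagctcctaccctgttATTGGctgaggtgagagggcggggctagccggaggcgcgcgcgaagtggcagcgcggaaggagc
Top2a: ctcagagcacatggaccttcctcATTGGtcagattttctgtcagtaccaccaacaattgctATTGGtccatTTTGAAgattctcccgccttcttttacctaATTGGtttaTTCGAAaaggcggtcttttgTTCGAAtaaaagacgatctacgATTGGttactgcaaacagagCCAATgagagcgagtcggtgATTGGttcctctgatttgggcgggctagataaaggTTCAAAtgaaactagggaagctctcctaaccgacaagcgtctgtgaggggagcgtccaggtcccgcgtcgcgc
The Mcm6 window held 3 E2F matches and 2 CCAAT matches, that of Top2a 4 CHR matches and 6 CCAAT matches, and that of Mcm2 1 CHR and 1 CCAAT match. An E2F match was found in 8 of 25 G1/S genes with a promoter entry (32%) and in 1 of 23 G2/M genes (4.35%), against 4.07% of 9963 tested genes. A CHR match was found in 5 of the G1/S genes (20%) and 19 of the G2/M genes (82.6%), against 13.4%. CCAAT was found in 14 (56%) and 19 (82.6%), against 37.9%. These shares describe letters in the windows. Mcm2 is shown as the replication gene with the smallest p, and Mcm6 and Top2a as genes with several matches, chosen after the matches were seen.

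Mature T-cell genes had positive interactions that rested on the same arrays. In whole-lung RNA, fewer cells of a type and less RNA per cell cannot be told apart. Of 27 mature T-cell genes 21 passed the filter, all above 0, with 8 positive at the unadjusted threshold (6.5% of all genes) and a median of 0.88. Their median TiO2 difference was 0.03 in pregnant and −0.84 in non-pregnant mice. List means were 6.70 to 6.97 in pregnant TiO2, 6.63 to 6.93 in pregnant PBS and 6.30 to 6.55 in non-pregnant TiO2 lungs, and 6.40, 6.58, 7.97 and 8.10 in non-pregnant PBS lungs. Without non-pregnant PBS arrays 3 and 4 the median was 0.14, with 13 of 21 above 0. Thy1, a surface glycoprotein of T cells and thymocytes, had 7.39, 7.72, 7.69 and 7.67 in non-pregnant TiO2 lungs, against 8.06, 7.85, 9.81 and 10.11 in non-pregnant PBS lungs, and 8.19 to 8.48 against 7.96 to 8.36 in pregnant mice. Its interaction was 1.55 ± 0.53, and 0.55 without the 2 arrays. Immature T-cell genes of the thymus were divided: of 12 measured genes 7 lay above 0 and 5 below, down to −0.81, while 53.3% of all genes lay above 0. Their median was 0.36, with 5 positive at the unadjusted threshold (6.5% of all genes). It was 0.23 without non-pregnant PBS array 3 and 0.18 without arrays 3 and 4. The 5 measured thymic epithelium genes had 0.18, and −0.01 without the 2 arrays. The T-cell receptor chain Cd3d (1.50 ± 0.55 and 0.52), the signalling adaptor Lat (1.21 ± 0.51 and 0.32) and the chromatin organizer Satb1 (1.23 ± 0.51 and 0.29) did likewise, as did the DNA end-binding protein Xrcc6 (0.73 ± 0.25 and 0.35).

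The median of B-cell and plasma cell genes moved less when these arrays were left out. Of 29 listed, 25 passed the filter and 24 lay above 0, with 3 positive at the unadjusted threshold (6.5% of all genes). Their median was 0.43, and 0.33 without non-pregnant PBS arrays 3 and 4. The difference came from non-pregnant mice, where the median was −0.56, against −0.06 in pregnant mice. Ighm, the heavy chain of immunoglobulin M, was at 12.12, 10.47, 11.87 and 11.57 in pregnant TiO2 lungs, against 11.57, 11.36, 10.29 and 11.29 in pregnant PBS lungs. Levels of Ighm in non-pregnant mice were 8.62, 10.69, 10.12 and 9.50 with TiO2, against 11.12, 10.74, 10.90 and 11.01 with PBS. Non-pregnant TiO2 array 1 was the lowest of all, and the interaction was 1.59 ± 0.57, although other probe sets of Ighm ranged down to −1.61. Jchain, which joins secreted immunoglobulin units, had 0.96 ± 0.30, the plasma cell chaperone Mzb1 0.42 ± 0.19 and the B-cell surface protein Ms4a1 0.72 ± 0.36. Non-pregnant TiO2 arrays 1 and 4, which were low in Glycam1, had the lowest means of this list, at 6.91 and 7.09, while pregnant TiO2 array 2, also low in Glycam1, had 8.00. Without these 3 arrays the median was 0.27, with 18 of 25 above 0. The 4 measured genes of lymph node venules and stroma had a median of 0.44, with 2 above 0, and 0.28 without pregnant PBS array 3 and 0.68 without pregnant TiO2 array 2.

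Neutrophil genes had negative interactions, with the difference in pregnant mice. Of 32 listed, 20 passed the filter, and 16 lay below 0. At the unadjusted threshold 6 were negative, against 4.43% of all genes, and 0 positive. The median was −0.36, composed of −0.33 in pregnant and −0.07 in non-pregnant mice. List means were 8.42, 8.52, 8.73 and 8.80 in pregnant TiO2 lungs, against 9.18, 9.13, 8.95 and 8.84 in pregnant PBS lungs. The non-pregnant means were 8.07, 8.21, 8.11 and 8.05 with TiO2 and 8.10, 8.25, 8.14 and 8.03 with PBS. Pregnant lungs thus stood above non-pregnant ones on every array, pregnant TiO2 arrays lay below every pregnant PBS array, and the non-pregnant groups overlapped.

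S100a8 and S100a9 form calprotectin, the main cytosolic protein of neutrophils. S100a8 was at 10.92, 11.28, 11.47 and 11.29 in pregnant TiO2 lungs, against 12.65, 12.55, 12.24 and 12.02 in pregnant PBS lungs. Non-pregnant lungs had 10.40, 11.10, 10.75 and 10.18 with TiO2, against 10.70, 11.19, 11.19 and 10.54 with PBS. Its interaction was −0.83 ± 0.29, and that of S100a9 −0.66 ± 0.30. Mmp8, the neutrophil collagenase, had 6.15, 6.49, 7.25 and 7.15 in pregnant TiO2 lungs, against 8.44, 8.87, 7.81 and 7.36 in pregnant PBS lungs, and stayed between 6.26 to 6.67 with TiO2 and 6.24 to 7.06 with PBS in non-pregnant ones. Its interaction was −1.28 ± 0.43, and limma's adjusted p for Mmp8, S100a8 and S100a9 was 0.363, 0.38 and 0.443. Trem3, an activating receptor of granulocytes, had −0.38 ± 0.15, and Il1r2, the decoy receptor for interleukin 1, −0.73 ± 0.28. In all of these pregnant TiO2 arrays lay below every pregnant PBS array. They were not drawn evenly from the list, and the share of all genes apart in this way was not counted. Of the 20 measured neutrophil genes, 5 had a positive TiO2 difference in pregnant mice, among them Lcn2, described with the inflammation genes. Counting non-pregnant PBS array 2 as pregnant, as its other label says, gave a median of −0.20 for the list and 1 negative gene at the unadjusted threshold in place of 6. The list mean of 8.25 on that array lies below every pregnant TiO2 array, so that the pregnant groups would then overlap. Without non-pregnant PBS arrays 3 and 4 and pregnant TiO2 array 2 there were 3 negative.

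Genes of inflammation that respond to particles in lung had interactions that were small or had wide errors. Saa3, an acute-phase protein made by lung epithelium and macrophages, was at 9.05, 9.04, 8.53 and 9.92 in pregnant TiO2 lungs, against 8.04, 8.05, 8.15 and 7.53 in pregnant PBS lungs. Its non-pregnant values were 8.34, 8.22, 8.05 and 8.54 with TiO2 and 8.67, 7.76, 6.83 and 7.52 with PBS. Saa3 was higher with TiO2 on average in both pregnancy states (1.19 ± 0.32 and 0.59 ± 0.32), and the interaction of 0.60 ± 0.45 had a 95% interval of −0.36 to 1.56. Lcn2, which withholds iron from bacteria, had TiO2 differences of 0.77 ± 0.19 in pregnant and 0.66 ± 0.19 in non-pregnant mice and an interaction of 0.11 ± 0.27. Pigr, the epithelial carrier of polymeric immunoglobulins, had 0.69 ± 0.14 and 0.43 ± 0.14, with an interaction of 0.26 ± 0.19. For the neutrophil chemokine Cxcl1 the interaction was 0.07 ± 0.35, for the cytokine Il1b −0.23 ± 0.20, for haem oxygenase Hmox1 −0.08 ± 0.24, and for the metallothioneins Mt1 and Mt2 0.01 ± 0.21 and −0.11 ± 0.32. The interval of Cxcl1 was −0.67 to 0.81, which leaves room for a difference of either sign. The scavenger receptor Marco had 0.81 ± 0.53, and was weak on all non-pregnant TiO2 arrays (4.13 to 4.77) and on non-pregnant PBS arrays 2 and 4 (4.23 and 4.16).

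Cxcl2, Cxcl5, Ccl2, Ccl3, Il6 and Tnf did not pass the filter on low signal, at 4.04 to 6.21 on all arrays. In a fit without the filter their interactions lay between −0.57 for Tnf and 0.40 for Ccl3. Tnf, the main macrophage cytokine, was at 4.72, 4.73, 4.66 and 4.55 in pregnant TiO2 lungs, against 5.31, 5.20, 4.90 and 4.96 in pregnant PBS lungs. Non-pregnant values were 4.32, 5.10, 4.38 and 4.48 with TiO2 and 4.23, 4.41, 4.61 and 4.47 with PBS, and the interaction was −0.57 ± 0.21 (limma's adjusted p = 0.511). That fit called a single gene, Atp4a, a subunit of the gastric proton pump, which was chosen here after its value was seen. It was weak on every array, at 4.94, 5.03, 5.22 and 5.01 in pregnant TiO2 lungs, against 4.73, 4.31, 4.43 and 4.27 in pregnant PBS lungs. In non-pregnant mice it was at 4.27, 4.27, 4.19 and 4.24 with TiO2 and 4.95, 5.30, 4.89 and 5.17 with PBS. Both pairs of groups were apart in opposite order, and the interaction was 1.45 ± 0.16 (limma's adjusted p = 0.00275).

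Complement genes had positive interactions with the difference mainly in pregnant mice. Of 29 listed, 16 passed the filter, 14 lay above 0, and 4 were positive at the unadjusted threshold (6.5% of all genes). The median was 0.23, from 0.21 in pregnant and −0.05 in non-pregnant mice, and 0.15 without non-pregnant PBS array 1. List means were 9.14 to 9.19 in pregnant TiO2 lungs, above the 8.95 to 9.00 of pregnant PBS lungs on every array. They overlapped in non-pregnant mice, at 8.73 to 8.96 with TiO2 and 8.80 to 8.99 with PBS. C1q, the opener of the classical pathway, is made of chains from 3 genes and comes largely from macrophages. C1qa was at 9.96, 9.95, 10.02 and 10.15 in pregnant TiO2 lungs, against 9.59, 9.60, 9.61 and 9.68 in pregnant PBS lungs. Non-pregnant lungs had 9.53, 9.43, 9.58 and 9.61 with TiO2, against 9.95, 9.52, 9.54 and 9.82 with PBS. The pregnant TiO2 arrays were the highest but for non-pregnant PBS array 1, which lay level with the lowest of them, and the interaction was 0.57 ± 0.13.

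C1qb and C1qc had interactions of 0.34 ± 0.16 and 0.37 ± 0.12, and C1ra, a protease of the same complex, 0.29 ± 0.13. Macrophage and monocyte genes as a list did not share this. Of 28 that passed the filter 16 lay above 0, with a median of 0.05. The 4 positive at the unadjusted threshold (6.5% of all genes) were the C1q genes and Cx3cr1, the fractalkine receptor (0.72 ± 0.29). List means of macrophage genes were 8.87 to 9.06 in pregnant TiO2 and 8.83 to 8.90 in pregnant PBS lungs, and 8.56 to 8.62 in non-pregnant TiO2 and 8.53 to 8.67 in non-pregnant PBS lungs.

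**Figure D4:**
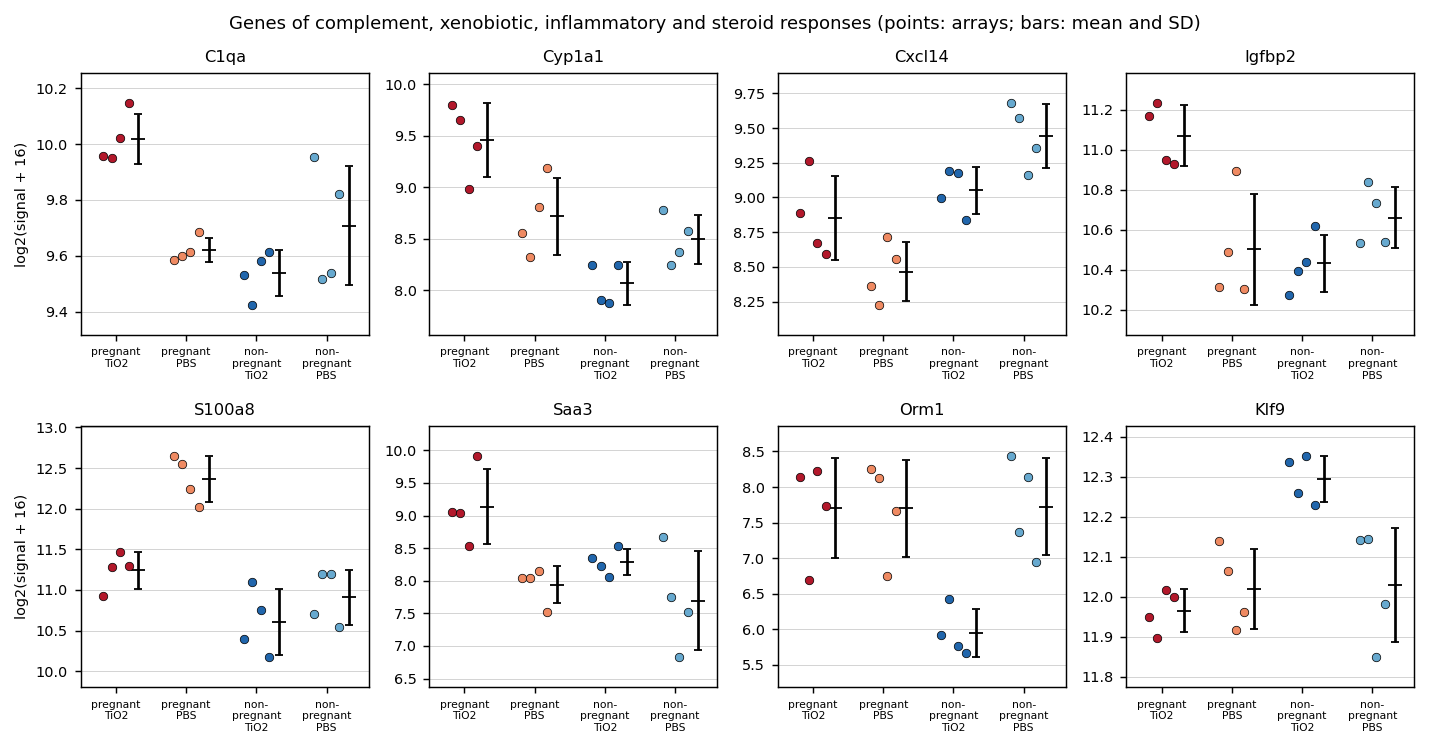
Level of 8 genes on each array, as log2(signal + 16), in the 4 groups, with bars for mean and SD of 4 arrays. C1qa, Cyp1a1 and Igfbp2 are highest in pregnant TiO2 lungs, S100a8 is highest in pregnant PBS lungs, Orm1 is lowest and Klf9 highest in non-pregnant TiO2 lungs, Cxcl14 is highest in non-pregnant PBS lungs, and Saa3 is higher with TiO2 on average in both pregnancy states.

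Chemokine and cytokine genes had a median interaction of 0.18, with 17 of 24 above 0 (53.3% of all genes) and 4 positive at the unadjusted threshold (6.5% of all genes). The median was 0.07 without non-pregnant PBS arrays 3 and 4 and pregnant TiO2 array 2. Cxcl14, a chemokine of epithelium and fibroblasts, was at 8.89, 9.26, 8.67 and 8.59 in pregnant TiO2 lungs, against 8.36, 8.23, 8.71 and 8.56 in pregnant PBS lungs, and at 9.00, 9.19, 9.18 and 8.84 in non-pregnant TiO2 lungs, against 9.68, 9.57, 9.16 and 9.36 in non-pregnant PBS lungs. Its highest levels were in the non-pregnant PBS group, and its interaction was 0.78 ± 0.22. Cxcl10, an interferon-induced attractant of T cells, had 0.91 ± 0.29 at a low level (at most 6.50), the monocyte attractant Ccl8 0.66 ± 0.25, and Cxcl16, a membrane-bound chemokine, 0.30 ± 0.12.

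Acute-phase genes had a median of 0.18, which was 0.09 without non-pregnant PBS array 1, with 10 of 14 above 0. Orm1, a plasma glycoprotein of the acute phase, had the highest interaction of the list, at 1.78 ± 0.55. It was at 8.14, 6.70, 8.23 and 7.74 in pregnant TiO2 lungs, against 8.25, 8.13, 6.75 and 7.67 in pregnant PBS lungs. Its non-pregnant values were 5.92, 6.42, 5.77 and 5.67 with TiO2 and 8.44, 7.37, 8.13 and 6.95 with PBS. Non-pregnant TiO2 lungs were thus low without overlap, while the other 3 groups covered the same range. The fat marker Adipoq was also low there, at 7.73 to 10.17, against 10.30 to 11.15 in non-pregnant PBS lungs, and the lowest pregnant arrays for Orm1, TiO2 array 2 and PBS array 3, were the lowest of their groups for Adipoq (8.65 and 9.62). The part of fat in Orm1 was not tested. Among coagulation genes the median was −0.07; Tfpi2, a protease inhibitor, had 0.65 ± 0.18, and the clotting factor F7 −0.40 ± 0.16, beside Procr.

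Genes that respond to glucocorticoids had negative interactions, with the difference in non-pregnant mice. Of 29 listed, 28 passed the filter and 22 lay below 0, with 6 negative at the unadjusted threshold (4.43% of all genes). The median was −0.27, from −0.04 in pregnant and 0.25 in non-pregnant mice, and −0.21 without non-pregnant PBS arrays 3 and 4. The negative genes at the unadjusted threshold numbered 2 without these and pregnant TiO2 array 2, and 0 without the 3 arrays low in Glycam1. List means were 9.85, 9.84, 10.35 and 10.30 in pregnant TiO2 lungs and 10.17, 10.10, 10.08 and 10.03 in pregnant PBS lungs. In non-pregnant mice they were 10.42, 10.26, 10.34 and 10.33 with TiO2 and 10.16, 10.06, 9.75 and 10.31 with PBS. Pregnant TiO2 arrays 1 and 2 were low and arrays 3 and 4 high, and non-pregnant PBS array 3 was the lowest of all.

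Hsd11b1, which regenerates active glucocorticoid in tissue, was at 11.02, 11.13, 11.55 and 11.45 in pregnant TiO2 lungs, against 11.56, 11.50, 11.43 and 11.52 in pregnant PBS lungs. Its non-pregnant values were 11.66, 11.55, 11.50 and 11.62 with TiO2 and 11.38, 11.36, 10.79 and 11.42 with PBS, and its interaction was −0.56 ± 0.19. Klf9, a transcription factor induced directly by the glucocorticoid receptor, was at 12.34, 12.26, 12.35 and 12.23 in non-pregnant TiO2 lungs, against 12.14, 12.14, 11.85 and 11.98 in non-pregnant PBS lungs, and overlapped in pregnant mice (11.90 to 12.02 with TiO2 and 11.92 to 12.14 with PBS). Its interaction was −0.32 ± 0.11, and over its 6 probe sets values ran from −0.32 to 0.67. The receptor Nr3c1 itself had −0.31 ± 0.12.

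Heat-shock genes had a median of −0.10, with 16 of 23 below 0 and 3 negative at the unadjusted threshold (4.43% of all genes), and 0 without the 3 arrays low in Glycam1. The 3 were Hspa4l, a nucleotide exchange factor of the Hsp70 system (−0.58 ± 0.19), and the Hsp70 cochaperones Dnajb1 (−0.53 ± 0.21) and Dnaja1 (−0.36 ± 0.15). Dnajb1 was at 9.83 to 10.60 in non-pregnant TiO2 lungs, above the 9.33 to 9.75 of non-pregnant PBS lungs, and at 9.61 to 9.85 in pregnant TiO2 and 9.54 to 9.89 in pregnant PBS lungs. The list median was −0.05 without pregnant TiO2 array 2, and 0.00 without this array and the thymus-bearing ones. Among circadian genes Per2, a repressor of the clock, had the smallest p of its list, at −0.55 ± 0.23 and −0.29 without non-pregnant PBS arrays 3 and 4. The clock list as a whole had a median of −0.12, and −0.02 without them.

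Among genes of hormone and xenobiotic sensing, Cyp1a1 and Pgr had opposite differences in the pregnancy states. They were named by their small interaction p. Of positive genes at the unadjusted threshold 95.5% had opposite signs, against 57.1% of all genes. Cyp1a1, the oxidase induced through the aryl hydrocarbon receptor, was at 9.80, 9.65, 8.98 and 9.40 in pregnant TiO2 lungs, against 8.55, 8.32, 8.81 and 9.19 in pregnant PBS lungs. In non-pregnant mice it was at 8.25, 7.90, 7.87 and 8.24 with TiO2, against 8.78, 8.24, 8.37 and 8.58 with PBS. In each pair 1 or more arrays overlapped, yet the differences ran opposite ways (0.74 ± 0.19 and −0.43 ± 0.19), giving an interaction of 1.17 ± 0.28. Tiparp, a feedback inhibitor of the receptor, had −0.40 ± 0.14, and the 8 measured genes of the receptor's list had a median of 0.01. Pgr, the progesterone receptor, averaged 6.35 ± 0.25 in pregnant TiO2 and 5.94 ± 0.22 in pregnant PBS lungs, and 6.01 ± 0.26 in non-pregnant TiO2 and 6.34 ± 0.20 in non-pregnant PBS lungs (SD, n = 4 each). Its interaction was 0.73 ± 0.22. The 18 measured genes of hormone receptors and pregnancy hormones had a median of −0.11, with 1 positive and 3 negative at the unadjusted threshold, against 6.5% and 4.43% of all genes. Without non-pregnant PBS arrays 3 and 4 there were 0 negative, and without non-pregnant PBS array 1 the median was −0.04. The immediate-early factor Egr2 had 1.00 ± 0.27, and 0.66 without non-pregnant PBS arrays 3 and 4, where it was highest; its second probe set gave 0.20. The immediate-early list had a median of −0.07.

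Lipid synthesis genes had a median of 0.09, which was 0.00 without non-pregnant PBS array 3 and 0.16 without pregnant TiO2 array 2. Scd1, the desaturase that makes oleate, was lower with TiO2 in non-pregnant mice without overlap, at 11.94, 12.51, 12.13 and 12.11, against 13.02, 12.73, 12.94 and 12.77 with PBS, and overlapped in pregnant mice, at 12.29 to 12.69 with TiO2 and 12.28 to 12.69 with PBS. Its interaction was 0.63 ± 0.18. The sterol sensor partner Insig1 had 0.59 ± 0.23, and Acly, which supplies acetyl-CoA, 0.42 ± 0.19. These genes are strong in fat, whose marker Adipoq was low in the same lungs, and the part of fat in them was not tested.

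Lung cell types had medians close to 0: −0.03 for alveolar type 1, −0.04 for alveolar type 2, −0.06 for club and secretory, 0.01 for endothelial and 0.08 for smooth muscle and fibroblast genes. Single members differed from their lists. Igfbp2, a binding protein for insulin-like growth factors found in alveolar type 1 cells, was at 11.17, 11.23, 10.95 and 10.93 in pregnant TiO2 lungs, against 10.32, 10.49, 10.90 and 10.31 in pregnant PBS lungs, and at 10.28 to 10.62 in non-pregnant TiO2 lungs, against 10.53 to 10.84 in non-pregnant PBS lungs. All pregnant TiO2 arrays lay above the 12 others, and the interaction was 0.80 ± 0.18. The surfactant protein Sftpb had −0.27 ± 0.12, and Ctsh, which processes it, −0.25 ± 0.11. Ciliated cell genes had a median of 0.12 (0.05 without pregnant TiO2 array 1 and 0.19 without array 4), with 21 of 29 above 0, among them the master regulator Foxj1 (0.57 ± 0.25) and the radial spoke gene Rsph9 (0.47 ± 0.22).

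Matrix genes had a median of 0.18 (0.10 without non-pregnant PBS array 1), with 5 positive and 3 negative of 37 at the unadjusted threshold, against 6.5% and 4.43% of all genes. Mfap5, a glycoprotein of elastic microfibrils, was at 9.25, 9.21, 9.08 and 8.92 in pregnant TiO2 lungs, against 8.63, 8.64, 8.71 and 8.83 in pregnant PBS lungs, without overlap. It was at 8.94 to 9.31 in non-pregnant TiO2 and 9.22 to 9.35 in non-pregnant PBS lungs, an interaction of 0.57 ± 0.13. The metalloproteinase inhibitor Timp1 had 0.54 ± 0.19 and the tenascin Tnxb 0.45 ± 0.17. Genes of oxidative phosphorylation had a median of 0.12 (0.06 without non-pregnant PBS array 1), with 20 of 23 above 0 (53.3% of all genes) and 5 positive at the unadjusted threshold (6.5% of all genes). Without non-pregnant PBS arrays 3 and 4, 16 lay above 0 and 1 was positive, and without non-pregnant PBS array 2 the median was 0.19. Examples are the cytochrome oxidase subunit Cox5a (0.45 ± 0.15) and cytochrome c, Cycs (0.38 ± 0.16), both lower with TiO2 in non-pregnant mice without overlap.

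Innate sensing and antigen presentation showed few differences. Interferon-stimulated genes had a median of 0.01, with 2 of 26 negative at the unadjusted threshold (4.43% of all genes). These were Oas2, a sensor of double-stranded RNA that activates RNase L (−0.76 ± 0.25), and the RNA sensor Ifih1 (−0.31 ± 0.11). Toll-like receptor and inflammasome genes had a median of −0.05, with the flagellin receptor Tlr5 at 0.56 ± 0.23 and the adaptor Myd88 at −0.25 ± 0.11. Genes of MHC class II presentation had a median of 0.13, which was 0.07 without pregnant TiO2 array 2, 0.04 without non-pregnant PBS arrays 3 and 4 and −0.03 without all 3, with the class II chain H2-Ab1 at 0.41 ± 0.14 and H2-Oa, which tunes peptide loading in B cells, at 0.79 ± 0.28. Metallothionein and Nrf2 antioxidant genes had a median of −0.01, with the zinc exporter Slc30a1 at −0.32 ± 0.11 and the sulfiredoxin Srxn1 at 0.29 ± 0.13. Other blood cell lists were close to 0, with −0.06 for platelet (−0.19 without non-pregnant TiO2 array 4), 0.01 for erythroid and −0.01 for alternatively activated macrophage genes. Natural killer genes had 0.19, and 0.01 without non-pregnant PBS array 3, and ribosomal protein genes 0.00.

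Among tissues other than lung parenchyma, fat, squamous and fast skeletal muscle genes had list medians far from 0. The squamous and skeletal muscle medians depended on a single array. White and brown fat genes had a median of 0.93, with 14 of 16 above 0, from −0.29 in pregnant and −1.22 in non-pregnant mice. With 1 array left out the fat median ranged from 0.59 without pregnant PBS array 3 to 1.45 without pregnant TiO2 array 2. Thrsp, a regulator of lipogenesis, had 1.74 ± 0.74, and the adipocyte hormone Retn 1.37 ± 0.58. Squamous epithelium genes were below 0 in all 20 measured (median −0.74), as were fast skeletal muscle genes in all 19 (median −0.76). Without pregnant TiO2 array 2 these medians were −0.06 and 0.03. Cardiac muscle genes, found in the sleeves of the pulmonary veins in mice, had 0.19, with the troponin Tnnt2 at 0.52 ± 0.14; the median was 0.11 without pregnant TiO2 array 1 and 0.30 without array 2. The plot of list medians sets these values beside those without the arrays that stood apart.

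**Figure D5:**
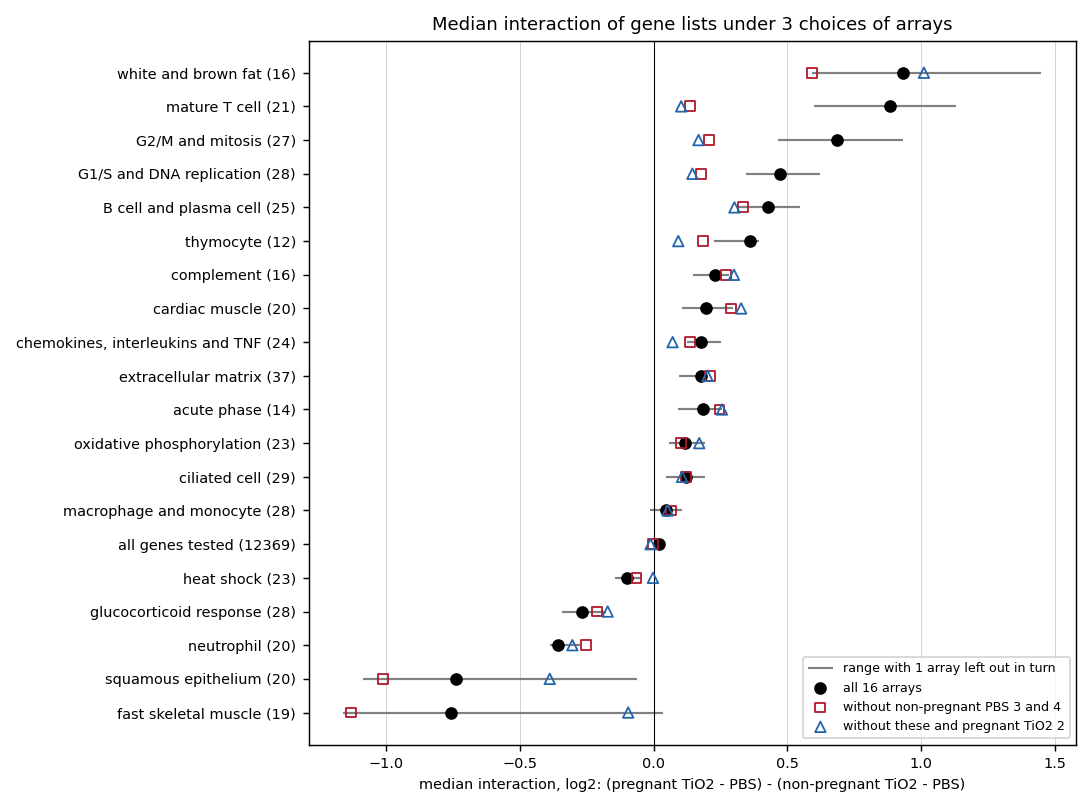
Median interaction (log2) of 19 gene lists and of all genes, with all 16 arrays (filled circles), without non-pregnant PBS arrays 3 and 4 (squares) and without these and pregnant TiO2 array 2 (triangles); grey lines give the range when 1 array at a time is left out. Cell-cycle and T-cell medians move close to 0.2 or below without the thymus-bearing arrays. Squamous and fast skeletal muscle medians depend on pregnant TiO2 array 2, and those of complement and neutrophil genes stay on their side of 0.

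Positive and negative genes also differed in the length of the gene. The genomic span had a median of 15.1 kb over the 804 positive genes and 42.3 kb over the 548 negative ones, against 23.8 kb over all genes, with a span known for over 99.8% of each. Without non-pregnant PBS arrays 3 and 4 the medians were 16.1 kb and 34.1 kb, and with non-pregnant PBS array 2 counted as pregnant they were 14.8 kb and 50.6 kb. The genes were chosen by the contrast, so these medians describe them and carry no test. Their median levels were 8.09 and 8.89, against 8.31 over all genes.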

How the data were processed

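The 16 arrays were Affymetrix mouse expression chips. The deposited values are linear intensities, 1 per probe set and array. The tools listed in the submitters' processing notes are GCOS, MAS5 and RMA, without versions or roles. The trimmed mean intensity was 137 to 264 over arrays, so the authors' values were not scaled to 1 target. The number of arrays limits the precision.

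Of 45101 probe sets, 64 controls were left out. Arrays were quantile-normalized, 16 was added and log2 taken. Probe sets above their array's median on at least 4 arrays were kept (23995), and the probe set with the highest mean stood for each gene (12369 genes). Platform annotation gave 1 symbol to 34945 probe sets, several to 932 and none to 9160; 34741 of the first matched RefSeq's mouse table. Probe sets with several symbols were not named.

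One limma fit (3.58.1, R 4.3.3) of 4 group means, with 12 residual degrees of freedom, gave all contrasts, with Benjamini-Hochberg adjustment over all genes and a threshold of 0.05. Lists are described by counts and medians. The fit was tested on simulated data. Named genes are the 12 of each sign with the smallest p, up to 4 per list by smallest p without a threshold, and 8 with reversed order. Members of the cell-cycle lists, 16 inflammation and stress genes and genes called under an alternative could also be named. The members and the 41 gene lists were chosen with earlier results of these data known. Alternatives covered the pseudocount, filter, normalization, probe set rule, array weights, other label of 1 array and arrays left out.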

Additional observations from a re-analysis of the deposited data

Results flagged for a closer look

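In 24 of 432 groups of 4 arrays (108 genes in 4 groups) 1 array lay apart from the other 3 by more than Dixon's critical value for the gap over the range, where chance gives about 1 in 20 groups. Non-pregnant PBS array 3 accounted for 5. It was low for Hsd11b1 (10.79, others 11.36 to 11.42), Hspa4l (8.24, others 8.86 to 8.97), Tiparp (9.53, others 9.91 to 9.96) and Ctsh (11.12, others 11.38 to 11.44), and high for Slc30a1 (10.22, others 9.93 to 9.98). Non-pregnant PBS array 2 was high for Mmp8 (7.06, others 6.24 to 6.31) and low for C1qb (8.12, others 8.58 to 8.65) and Nfatc3 (8.08, others 8.80 to 8.94). Non-pregnant PBS array 1 was high for Stk40 (9.10, others 8.65 to 8.70) and low for Dnajb1 (9.33, others 9.68 to 9.75). Non-pregnant TiO2 array 1 was high for Ints8 (8.86, others 8.67 to 8.68) and low for Thy1 (7.39, others 7.67 to 7.72) and Mzb1 (6.61, others 6.86 to 6.88). Non-pregnant TiO2 array 2 was high for Marco (4.77, others 4.13 to 4.24) and array 4 for Srxn1 (7.62, others 7.48 to 7.50).

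In pregnant TiO2 lungs, array 4 was low for Tbxa2r (7.79, others 8.00 to 8.04) and Tmem41a (8.63, others 8.93 to 8.98) and high for Cxcl10 (6.50, others 5.78 to 5.87), and array 1 was high for Mzb1 (8.12, others 7.69 to 7.70). In pregnant PBS lungs, array 4 was high for Ccnb2 (7.17, others 6.74 to 6.78) and low for Saa3 (7.53, others 8.04 to 8.15). Array 3 was high for Lcn2 (10.95, others 10.53 to 10.56) and low for Thrsp (10.02, others 11.50 to 11.60), and array 1 was high for Cox5a (12.12, others 11.96 to 11.98).

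Every TiO2 array lay on one side of every PBS array in pregnant mice and on the other side in non-pregnant mice for Dipk1b (interaction 0.78), Tbxa2r (0.82), Procr (0.50), Cnksr3 (−0.64), Plekha8 (−0.57), Rmdn1 (−0.55), Cdk18 (−0.47) and Tmem41a (−0.85). The difference was tested by the interaction term of the limma fit, and none of the 8 passed (adjusted p = 0.232 each).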

How the results depend on the processing

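No paired analysis was possible because replicate numbers were given in accession order and pair no arrays. With all arrays, 0 genes were called for the interaction. There were 4 without non-pregnant PBS arrays 3 and 4 and pregnant TiO2 array 2 (Lysmd1 −1.41, Sfrp4 1.19, Tab3 −0.77 and Telo2 −1.13, chosen after their values were seen), 1 without the filter (Atp4a), and 0 to 2 with 1 array left out, the 2 being Plekha8 and Nfatc3 without non-pregnant PBS array 2. The lowest adjusted p with array weights was 0.107. Unadjusted calls were 603 with values as deposited, 925 to 1849 with 1 array left out and 1968 with non-pregnant PBS array 2 counted as pregnant. With that label the lowest adjusted p by limma was 0.0702. In pregnant mice 1 gene was called with values as deposited, 1 with array weights, 2 without non-pregnant PBS arrays 3 and 4, and 0 to 1 with 1 array left out; in non-pregnant mice 1 was called without the filter and 0 to 5 with 1 array left out. The cause was not tested. Signs turned for 10 named genes with interactions near 0 or probe sets that disagree. With values as deposited Lcn2 was −0.14, Pigr −0.0067, Cxcl1 −0.19 and Mt1 −0.25; with array weights Mt1 was −0.035 and Mt2 0.14; with probe sets averaged Ighm was −0.21 and Klf9 0.026. Without non-pregnant PBS arrays 3 and 4 Mki67 was −0.0017, Cxcl1 −0.0029 and Hmox1 0.077, and with pregnant TiO2 array 2 left out too Mki67 was −0.041 and Cxcl1 −0.12. Without the arrays low in Glycam1 Cxcl1 was −0.10 and Mt2 0.068. With non-pregnant PBS array 2 as pregnant Cxcl1 was −0.12, Il1b 0.043, Hmox1 0.029 and Mt2 0.27. With 1 array left out Lcn2 was −0.016 to 0.27, Cxcl1 −0.069 to 0.25, Hmox1 −0.27 to 0.027, Mt1 −0.11 to 0.11 and Mt2 −0.27 to 0.079. Of 1189 list medians under alternatives 104 moved by more than the spread between arrays, and 34 of 41 lists had a moved median. With values as deposited, where all genes had −0.25, medians were 0.21 for G1/S, 0.48 for G2/M, −0.05 for complement, −0.60 for neutrophil and −0.52 for glucocorticoid genes.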
